A study of Mus musculus with 12 samples.

Results

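The proteasome genes were taken from the 430A array as every probe set whose single gene symbol on the platform begins with Psma, Psmb, Psmc, Psmd or Psme followed by a digit. The rule found 76 probe sets of 43 genes, among 22626 probe sets and 12393 singly named genes on the array. Of these, 64 probe sets of 41 genes were bright enough to be tested, and each gene was represented by its brightest probe set. Psmc3ip, a meiotic recombination protein, and Psme3ip1, an interactor of Psme3, match the rule by name but are no subunits. The 2 genes that were not tested were Psmc3ip and Psma8, a testis form of an alpha subunit, whose signals lay between 4.8 and 56.2. Each of the 41 tested genes was above the brightness limit on all 9 arrays, so none was tested only because 1 group was bright.

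Liver RNA of mice 10 weeks of age was hybridised to 9 Affymetrix 430A arrays and 3 Affymetrix 430 2.0 arrays, 1 liver per array. Fah is the last enzyme of tyrosine breakdown, NTBC is an inhibitor of an upstream enzyme of that pathway that keeps Fah knockout mice healthy, and p21, made by Cdkn1a, is an inhibitor of the kinases of the cell cycle. The comparison asks what the liver does when NTBC is withdrawn, with and without p21. The titles call the samples biological replicates, and the small number of arrays limits the precision of every value.

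The 4 livers titled normal on the 430A array each had a condition of their own. Normal 1 was a wildtype mouse on water, normal 2 a wildtype mouse on NTBC, normal 3 a Fah knockout mouse on NTBC and normal 4 a Fah, p21 knockout mouse on NTBC. The single knockout group, called Fah off, held 3 Fah knockout mice taken off NTBC for 14 days. The double knockout group, called Fah p21 off, held 2 Fah, p21 knockout mice off NTBC on the 430A array. A further 2 such mice were put on the 430 2.0 array with 1 normal liver, which has the genotype, treatment and replicate number of normal 4. All knockout groups thus lack Fah, and the p21 comparison has no p21 knockout with intact Fah. The labels name neither strain nor sex.

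The proteasome degrades proteins that carry chains of ubiquitin. Its 20S core is a barrel of alpha rings, which gate the entrance, and beta rings, in which Psmb5, Psmb6 and Psmb7 cut the substrate. Interferon gamma, a cytokine of T cells and natural killer cells, makes cells build Psmb8, Psmb9 and Psmb10 into the core in their place. The 19S particle caps the barrel: its base unfolds the substrate with a ring of ATPases, and its lid removes the ubiquitin. Nfe2l1 raises transcription of proteasome genes when the proteasome is overloaded, and Nfe2l2 does so under oxidative stress, both through the antioxidant response element.

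Promoter sequences were read from RefSeq windows of 300 bases, 250 before and 50 after a gene's start, build GRCm38.p6, which held 36 of the 43 genes. Both strands were searched for TGACNNNGC, the core of the antioxidant response element, for TTCNNNGAA, the site of STAT factors, and for the interferon-stimulated response element, written as GAAA, any pair of bases and GAAA. The antioxidant letters stood in the windows of 6 of the 36 genes, 16.7%, against 14.0% of all 27025 genes in the table. They were found for Psmb5, Psmb6, Psmc6, Psmd9, Psmd12 and Psme4. The STAT letters stood in 2 of the 36, 5.56% against 9.55% of all genes, namely Psmb8 and Psmd2. The interferon letters stood in 4 of the 36, 11.1% against 3.99%, namely Psmb3, Psmd4, Psmd9 and Psme1. None of these matches overlapped a match of another motif. These matches describe letters and not binding. The stretches shown are those of the catalytic subunits and of Psmc6, written 5′ to 3′ on the gene's strand with the match in capitals. They lie at chr14:54618004-54618072 (minus strand, Psmb5), chr11:70525318-70525356 (plus strand, Psmb6), chr14:45329574-45329635 (plus strand, Psmc6) and chr17:34198068-34198136 (plus strand, Psmb8), all upstream of the start, and the match of Psmc6 reads on the opposite strand.
Psmb5, antioxidant response element: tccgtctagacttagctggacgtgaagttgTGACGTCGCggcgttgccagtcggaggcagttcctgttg
Psmb6, antioxidant response element: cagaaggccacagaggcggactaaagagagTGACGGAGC
Psmc6, antioxidant response element: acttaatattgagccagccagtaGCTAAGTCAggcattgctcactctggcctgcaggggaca
Psmb8, STAT site: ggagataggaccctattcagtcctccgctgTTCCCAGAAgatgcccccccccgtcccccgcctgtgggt

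Values are MAS5 signals, which have no unit, and a change is a difference of group means of log2(signal + 9.9) from limma, given with its standard error. A gene passed at an adjusted p under 0.05, adjusted over all 15307 probe sets tested. The arrays had been scaled to a trimmed mean between 347.5 and 348.8. Fah itself read 6868 and 7120 in the wildtype livers and 100.8 to 233.0 in the 7 knockout livers. Of the 2 probe sets of Cdkn1a, 1 read 9.5 and 8.2 in the Fah p21 off livers against 989.5 to 1862 in the Fah off livers, and the other still read 1828 and 2060 against 2814 to 3936. The labels do not say which part of Cdkn1a was deleted, so neither probe set can be placed inside or outside it.

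Some livers stood apart for the proteasome genes. Fah off 3 was the highest of the 9 arrays for 22 of the 41 genes, a count made over the 41 only. It lay above both other Fah off livers for 25 of the 41, 61.0%, against 32.5% of all genes. Normal 4 was the lowest array for 18 of the 41, again a count over the 41 only. Normal 4 was at the same time the highest normal liver for the immune subunits described further on. In a count chosen after the values were seen, both wildtype normal livers were above both knockout normal livers for 30 of the 41 genes, 73.2%, against 18.8% of all genes. The opposite order held for 2 of the 41, against 38.2% of all genes. The normal livers also differ in water or NTBC, and genotype and the single mouse cannot be told apart here.

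**Figure D1:**
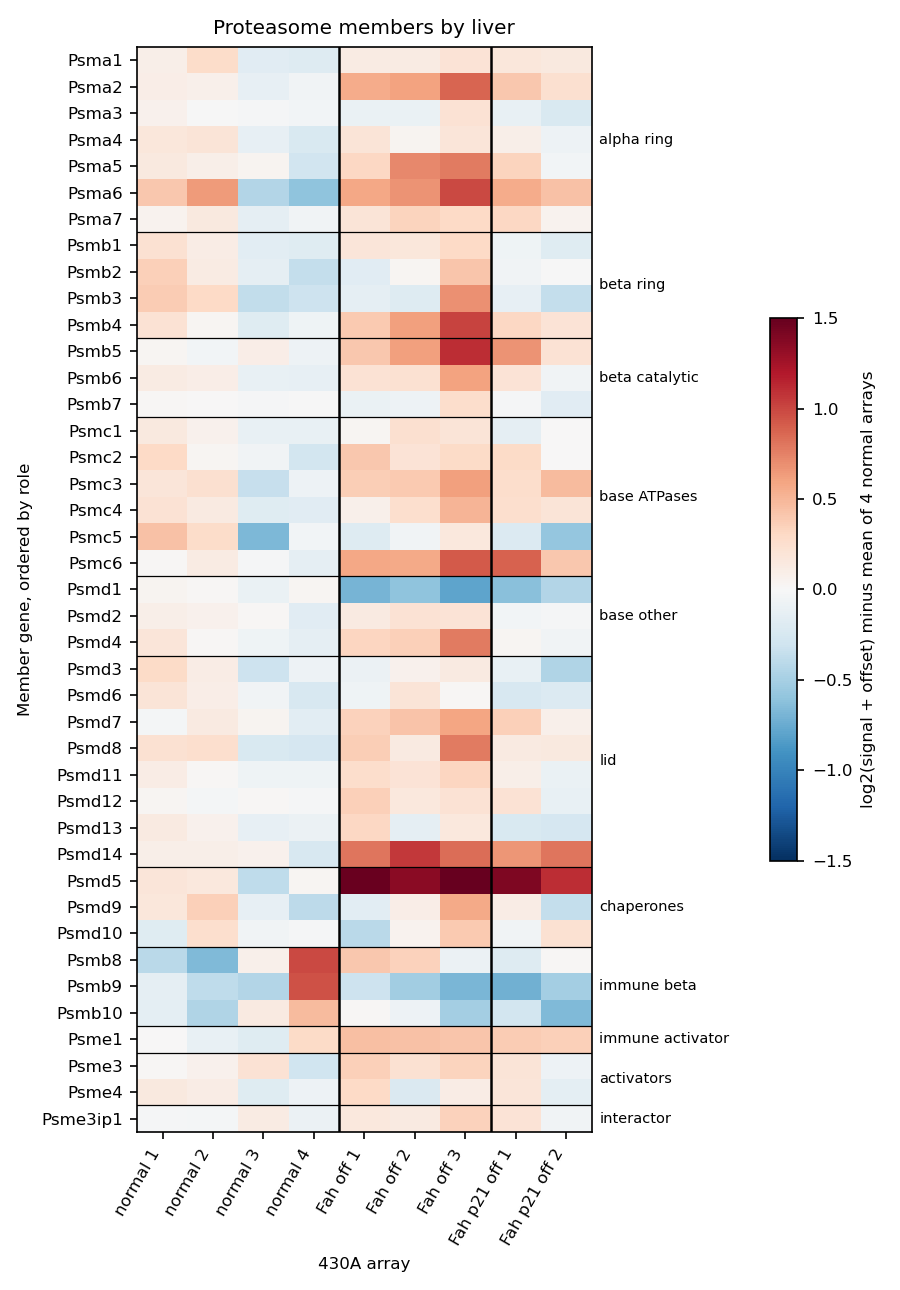
Heat map of the 41 tested proteasome genes (rows, ordered by role) on the 9 430A arrays (columns), coloured by log2(signal + 9.9) minus the mean of the 4 normal arrays, from blue (lower) to red (higher). Psmd5 is the reddest row in all 5 livers off NTBC, Psmd1 and Psmb9 are blue in all 5, and Psmb8 and Psmb9 are red in normal 4.

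After withdrawal of NTBC in Fah knockout mice, 11 of the 41 genes rose and 1 fell. In the standard proteasome, 4 of the 14 core genes rose (28.6%) and 5 of the 17 genes of the 19S particle (29.4%). Those of the core were Psma2 and Psma5 of the alpha ring and Psmb4 and Psmb5 of the beta ring. Those of the 19S particle were Psmc3 and Psmc6 of the ATPase ring, Psmd4 of the base, and Psmd7 and Psmd14 of the lid. Several of these calls did not hold in every alternative, as given below. Outside the standard particle, the assembly chaperone Psmd5 and the immune activator Psme1 rose. Psmd1, the scaffold of the base, fell. The 11 risen genes are 26.8% of those tested, against 19.7% of all genes that rose, and the 1 fallen gene compares with 16.5% of all genes that fell. The median change of the 41 was 0.22, against 0.00 over all genes, and 36 of the 41 changes were above 0, or 30 of 41 without Fah off 3. Psmb2, Psmb3, Psmb7 and Psmd9, none of which passed, were among those below 0 without that liver, at -0.07, -0.16, -0.09 and -0.03.

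A further count did not use the fit. Every Fah off liver lay above every normal liver for 18 of the 41 genes, against 22.9% of all genes. Every Fah off liver lay below every normal liver for 1, a count made over the 41 only. By probe set, 16 of the 64 passed, 15 higher and 1 lower, against 35.5% of all probe sets that passed in either direction. Leaving out Fah off 3 left 8 genes risen and 1 fallen, and leaving out normal 4 left 9 and 1. Against the wildtype normal livers alone 8 rose, 19.5% against 21.3% of all genes, and 1 fell, with a median change of 0.13 against 0.08 over all genes. Against the knockout normal livers alone 17 rose, 41.5% against 17.1%, and 1 fell, with a median of 0.35 against -0.06. The share also moved with the scaling: median scaling left 6 risen, 14.6% against 16.7% of all genes, and quantile normalization gave 15, 36.6% against 18.6%, each with 1 fallen.

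Of the 7 alpha ring genes, 2 rose and none fell, with a median change of 0.28. Psma2 read 1960, 1916, 1675 and 1759 in the normal livers, 2695, 2772 and 3346 in Fah off, and 2422 and 2165 in Fah p21 off. The 3 groups did not overlap, with the Fah p21 off livers between the others. Psma2 rose 1.60-fold in Fah off (0.68 ± 0.12 on the log2 scale, adjusted p = 0.00123), and its change in Fah p21 off was 0.33 ± 0.14 (adjusted p = 0.0994). Psma5 rose by 0.61 ± 0.16 (adjusted p = 0.0133), and its second tested probe set rose too, by 0.71. The brighter probe set did not pass in 4 of 21 alternatives, among them the wildtype normal livers alone, median scaling and leaving out Fah off 2. Its adjusted p ran from 0.00142 to 0.0829. Psma1, Psma4 and Psma7 had changes of 0.15, 0.14 and 0.28 in Fah off and did not pass.

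Psma6 had the largest fitted change of the ring but did not pass. It read 2049, 2418, 1139 and 1013 in the normal livers, 2320, 2465 and 3085 in Fah off, and 2281 and 2106 in Fah p21 off. The wildtype normal livers were near the level of the livers off NTBC and the knockout normal livers were the low ones. Its change in Fah off was 0.75 ± 0.27 (adjusted p = 0.0534), and it passed against the knockout normal livers alone at 1.27. At the other end, Psma3 read 2988, 2845, 2815 and 2770 in the normal livers, 2655, 2666 and 3310 in Fah off, and 2630 and 2441 in Fah p21 off, a change of 0.00 ± 0.11 in Fah off.

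In the beta ring, 1 of the 4 structural genes rose. Psmb4 read 2795, 2461, 2124 and 2311 in the normal livers, 3175, 3700 and 4872 in Fah off, and 2999 and 2770 in Fah p21 off. Every Fah off liver was above every normal liver, and Fah off 3 was the highest. Psmb4 rose 1.60-fold in Fah off (0.67 ± 0.15, adjusted p = 0.00547), and its change in Fah p21 off was 0.26 ± 0.17 (adjusted p = 0.308). Its second tested probe set did not pass in Fah off (0.29, adjusted p = 0.441), nor did the mean of its probe sets (adjusted p = 0.0842). Psmb1 read 2394, 2217, 1840 and 1803 in the normal livers, 2326, 2315 and 2529 in Fah off, and 1964 and 1808 in Fah p21 off, with overlapping groups and a change of 0.22 ± 0.13 in Fah off. Psmb2 had the smallest change of the 4, 0.09 ± 0.19, with 1532, 1301, 1090 and 930.5 in the normal livers, 1059, 1214 and 1599 in Fah off, and 1151 and 1191 in Fah p21 off. Psmb3 had a change of 0.12 ± 0.25 and did not pass.

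Of the standard catalytic genes, 1 of 3 rose. Psmb5, which cuts after hydrophobic residues and is the main target of proteasome inhibitors, read 2113, 2003, 2215 and 1954 in the normal livers, 2749, 3180 and 4468 in Fah off, and 3297 and 2410 in Fah p21 off. All 5 livers off NTBC were above all 4 normal livers. Psmb5 rose 1.64-fold in Fah off (0.71 ± 0.17, adjusted p = 0.00712), and still by 0.51 without Fah off 3 (adjusted p = 0.022), while its change in Fah p21 off was 0.44 ± 0.19 (adjusted p = 0.11). Psmb6, which cuts after acidic residues, read 1987, 1951, 1691 and 1675 in the normal livers, 2117, 2134 and 2781 in Fah off, and 2100 and 1760 in Fah p21 off, a change of 0.35 ± 0.14 in Fah off that did not pass (adjusted p = 0.0696). Psmb7, which cuts after basic residues, was the most even, with 5031, 5004, 4938 and 4962 in the normal livers, 4661, 4726 and 5989 in Fah off, and 4919 and 4442 in Fah p21 off, a change of 0.03 ± 0.11. Psmb5 and Psmb6, whose promoter stretches are printed above, both hold the antioxidant letters, and only the former passed.

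Of the 6 ATPases of the base, 2 rose. Psmc6 read 1263, 1361, 1229 and 1136 in the normal livers, 1858, 1851 and 2369 in Fah off, and 2302 and 1648 in Fah p21 off. Its livers off NTBC did not overlap the normal ones, and it rose by 0.69 ± 0.15 in Fah off (adjusted p = 0.00411) and by 0.64 ± 0.17 in Fah p21 off (adjusted p = 0.0153). This rested on its brightest probe set: its other tested probe sets had changes of -0.44 and -0.62 in Fah off, which did not pass, and the mean of the gene's probe sets one of -0.12. In Fah p21 off too, only 1 of the 3 tested probe sets of Psmc6 was above 0. The lowest stood at -0.32 there, and the mean of the probe sets did not pass. Psmc3 read 1252, 1304, 863.1 and 1043 in the normal livers, 1422, 1453 and 1690 in Fah off, and 1319 and 1532 in Fah p21 off, and rose by 0.46 ± 0.16 in Fah off (adjusted p = 0.0429). It had the highest adjusted p of the 11, and it no longer passed in 12 of 21 alternatives. Among them were the wildtype normal livers alone, median scaling, and leaving out normal 3, normal 4 or any 1 of the Fah off livers. Psmc5 had the smallest change, -0.03 ± 0.24, with 1407, 1252, 642.5 and 1008 in the normal livers, 901.2, 999.7 and 1153 in Fah off, and 897.4 and 689.6 in Fah p21 off. Psmc1, Psmc2 and Psmc4 lay between, with changes of 0.16, 0.30 and 0.28 that did not pass.

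The other base subunits moved in opposite directions. Psmd1, the large scaffold of the base, read 1670, 1654, 1525 and 1669 in the normal livers, 998.0, 1066 and 936.4 in Fah off, and 1047 and 1194 in Fah p21 off. All 5 livers off NTBC were below all 4 normal livers, and Psmd1 fell 1.62-fold in Fah off (-0.70 ± 0.11, adjusted p = 0.000681) and 1.45-fold in Fah p21 off (-0.54 ± 0.13, adjusted p = 0.00952). Psmd1 is read by 1 probe set. Psmd4, a ubiquitin receptor, read 1908, 1697, 1610 and 1525 in the normal livers, 2108, 2156 and 2889 in Fah off, and 1719 and 1621 in Fah p21 off. It rose by 0.49 ± 0.14 in Fah off (adjusted p = 0.0182), and its second tested probe set rose by 0.59. The brighter probe set did not pass in 4 of 21 alternatives, among them the wildtype normal livers alone, median scaling and leaving out Fah off 3 (0.34, adjusted p = 0.0633). The Fah p21 off livers of Psmd4 were within the normal range. Psmd2, which docks ubiquitin shuttles, read 2352, 2316, 2240 and 1963 in the normal livers, 2425, 2579 and 2548 in Fah off, and 2145 and 2177 in Fah p21 off, a change of 0.19 ± 0.11 in Fah off.

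Of the 8 lid genes, 2 rose. Psmd14, the enzyme that cuts ubiquitin off the substrate, read 1252, 1243, 1225 and 993.1 in the normal livers, 2049, 2449 and 2112 in Fah off, and 1857 and 2048 in Fah p21 off. It stood clear of the normal livers in all 5 livers off NTBC, and rose 1.87-fold in Fah off (0.90 ± 0.13, adjusted p = 0.000282) and 1.66-fold in Fah p21 off (0.73 ± 0.14, adjusted p = 0.00344). Psmd7, the inactive partner of Psmd14, read 520.7, 583.5, 547.8 and 474.9 in the normal livers, 675.5, 717.2 and 806.2 in Fah off, and 681.2 and 558.2 in Fah p21 off, and rose by 0.46 ± 0.14 in Fah off (adjusted p = 0.0227). Without Fah off 3 its change was 0.39 (adjusted p = 0.0736), and it also did not pass without Fah off 2 or without normal 4. In all, Psmd7 did not pass in 7 of 21 alternatives, among them the wildtype normal livers alone, median scaling and quantile normalization. Psmd3 was nearly level, with 1069, 943.5, 702.2 and 828.8 in the normal livers, 821.9, 918.3 and 963.8 in Fah off, and 810.7 and 639.6 in Fah p21 off, a change of 0.04 ± 0.16 in Fah off. Psmd6, Psmd8, Psmd12 and Psmd13 had changes of 0.05, 0.43, 0.24 and 0.11, none passed.

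Psmd11, a lid subunit with 5 tested probe sets, gave different answers by probe set. Its brightest probe set read 4850, 4538, 4286 and 4265 in the normal livers, 5359, 5180 and 5620 in Fah off, and 4750 and 4193 in Fah p21 off, a change of 0.26 ± 0.10 that did not pass (adjusted p = 0.0566). Another read 642.2, 651.4, 752.7 and 558.0 in the normal livers, 1088, 1205 and 1264 in Fah off, and 1187 and 1010 in Fah p21 off, and rose by 0.86 and by 0.75. Of the 16 genes with several tested probe sets, 4 had changes of mixed sign in Fah off: Psma6, Psmb1, Psmc6 and Psmd11. The dimmer probe sets of opposite sign did not pass in any of the 4.

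The assembly chaperones of the base were led by Psmd5, which had the largest change of the 41 genes in both groups off NTBC. Psmd5 binds an ATPase of the base while the ring is put together. It read 705.7, 694.1, 474.7 and 630.6 in the normal livers (626.3 ± 106.3, SD, n = 4), 1741, 1598 and 1880 in Fah off (1740 ± 141.2, SD, n = 3), and 1657 and 1344 in Fah p21 off (1500 ± 221.3, SD, n = 2). The livers off NTBC were all far above the normal ones, and Psmd5 rose 2.78-fold in Fah off (1.47 ± 0.16, adjusted p = 4.3e-05) and 2.39-fold in Fah p21 off (1.26 ± 0.18, adjusted p = 0.000473). Psmd9 and Psmd10, chaperones of the same step, did not pass. Psmd9 read 452.9, 514.2, 366.5 and 301.7 in the normal livers, 356.7, 430.6 and 600.6 in Fah off, and 432.3 and 311.7 in Fah p21 off, a change of 0.17 ± 0.23 in Fah off. Psmd10 read 141.6, 194.7, 156.9 and 160.8 in the normal livers, 120.3, 168.8 and 216.6 in Fah off, and 155.9 and 192.7 in Fah p21 off, a change of 0.01 ± 0.20.

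**Figure D2:**
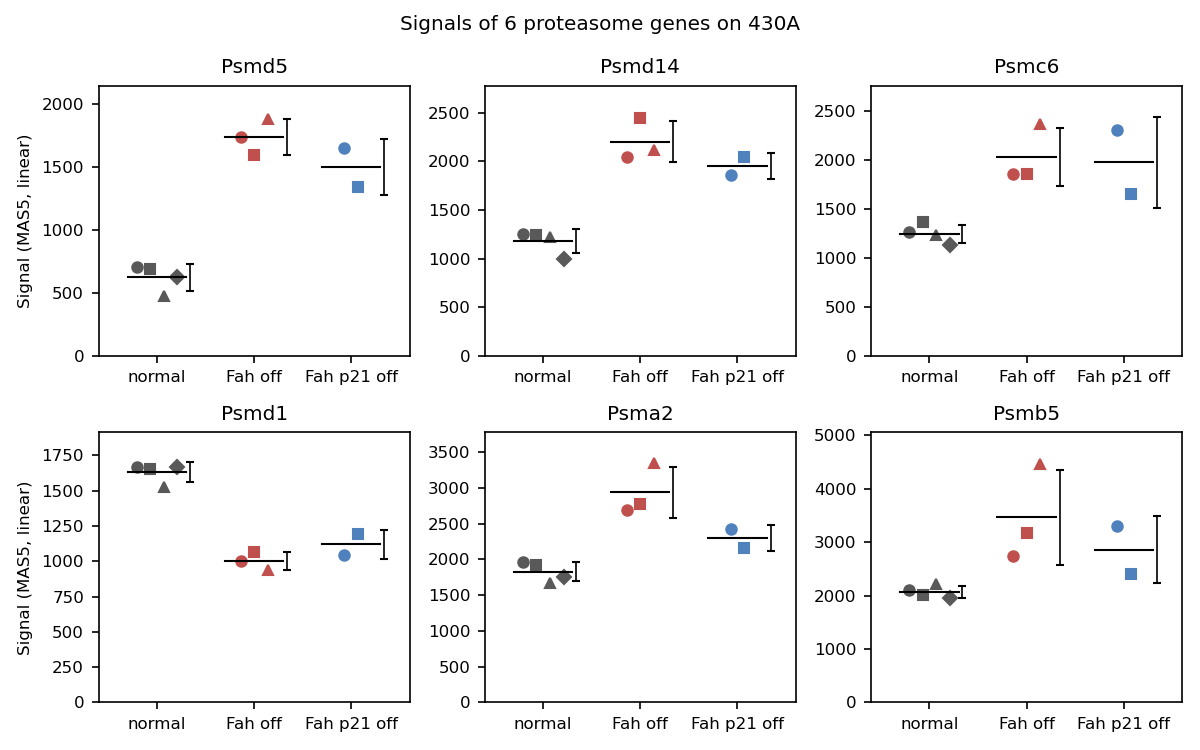
MAS5 signal (linear axis from 0) of 6 proteasome genes in each 430A liver, with normal (n = 4, grey), Fah off (n = 3, red) and Fah p21 off (n = 2, blue), 1 point per liver with the shape giving the replicate number. The line is the group mean and the bar its SD. Psmd5, Psmd14, Psmc6, Psma2 and Psmb5 are higher in all 5 livers off NTBC than in any normal liver, and Psmd1 is lower in all 5.

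None of the 3 immune catalytic genes passed on the 430A array in either comparison with normal. Psmb8 read 309.8, 256.8, 435.6 and 832.6 in the normal livers, 548.9, 525.4 and 388.5 in Fah off, and 361.4 and 418.5 in Fah p21 off. Psmb9 read 344.7, 289.2, 278.9 and 746.4 in the normal livers, 304.1, 262.6 and 232.5 in Fah off, and 226.7 and 264.5 in Fah p21 off. Psmb10 read 467.0, 374.5, 567.8 and 723.0 in the normal livers, 525.1, 490.0 and 360.2 in Fah off, and 426.9 and 322.8 in Fah p21 off. In each of the 3, normal 4 was the highest of all 9 livers.

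The changes of these genes in Fah off were 0.22 ± 0.33 for Psmb8 (adjusted p = 0.642), -0.51 ± 0.29 for Psmb9 (0.207) and -0.19 ± 0.22 for Psmb10 (0.548). In Fah p21 off they were -0.08 ± 0.37 (adjusted p = 0.892), -0.61 ± 0.33 (0.2) and -0.47 ± 0.25 (0.202). Without normal 4 the changes in Fah off were 0.55, -0.19 and -0.03, and those in Fah p21 off 0.25, -0.30 and -0.31, none passed. The sign for Psmb8 thus depended on the normal livers: its change in Fah off was 0.75 against the wildtype ones alone (adjusted p = 0.0461) and -0.32 against the knockout ones alone. Set against the standard subunit of the same place in the core, normal 4 had the highest ratio of the 9 livers in each pair, 1.08 above the normal mean on the log2 scale for Psmb8 to Psmb5, 1.07 for Psmb9 to Psmb6 and 0.48 for Psmb10 to Psmb7.

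Psme1, a subunit of the activator ring that interferon gamma also induces, read 1689, 1554, 1476 and 2058 in the normal livers, 2302, 2274 and 2250 in Fah off, and 2189 and 2159 in Fah p21 off. Both groups off NTBC were above all normal livers, and normal 4 was again the highest normal liver. In Fah off Psme1 rose by 0.44 ± 0.13 (adjusted p = 0.0211), and its change in Fah p21 off was 0.37 ± 0.14 (adjusted p = 0.0808). Without normal 4 it passed in both, at 0.53 (adjusted p = 0.00456) and 0.47 (adjusted p = 0.0183). Its call in Fah off was lost in 6 of 21 alternatives. These were the knockout normal livers alone, median scaling, and leaving out normal 2, normal 3, Fah off 1 or Fah off 2.

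A probe set that carries both the symbols Psme2 and Psme2b cannot be given to either gene and is no member. It read 808.2, 673.9, 797.8 and 746.3 in the normal livers, 1711, 1616 and 1800 in Fah off, and 1692 and 1310 in Fah p21 off. It rose 2.25-fold in Fah off (1.17 ± 0.13, adjusted p = 5.5e-05) and 1.96-fold in Fah p21 off (0.97 ± 0.15, adjusted p = 0.000671). Normal 4 lay within the range of the other normal livers here. On the 430 2.0 array the probe set read 3105 in the normal liver and 3757 and 4332 in Fah p21 off, a change of 0.38 that did not pass (adjusted p = 0.362).

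The remaining activators did not pass by their brightest probe sets. Psme3, the activator ring of the nucleus, read 298.8, 308.9, 343.6 and 239.1 in the normal livers, 381.3, 346.8 and 375.0 in Fah off, and 338.6 and 278.4 in Fah p21 off, a change of 0.31 ± 0.15 in Fah off. Psme4, a large single-chain activator, read 1600, 1567, 1281 and 1370 in the normal livers, 1785, 1243 and 1568 in Fah off, and 1648 and 1304 in Fah p21 off, a change of 0.06 ± 0.16. Of its other tested probe sets, 1 rose by 0.39 in Fah off (adjusted p = 0.0143) and the other did not pass (0.31, adjusted p = 0.0702). Psme3ip1 ranged from 408.2 to 553.7 over the 9 livers and had a change of 0.21 ± 0.13.

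**Figure D3:**
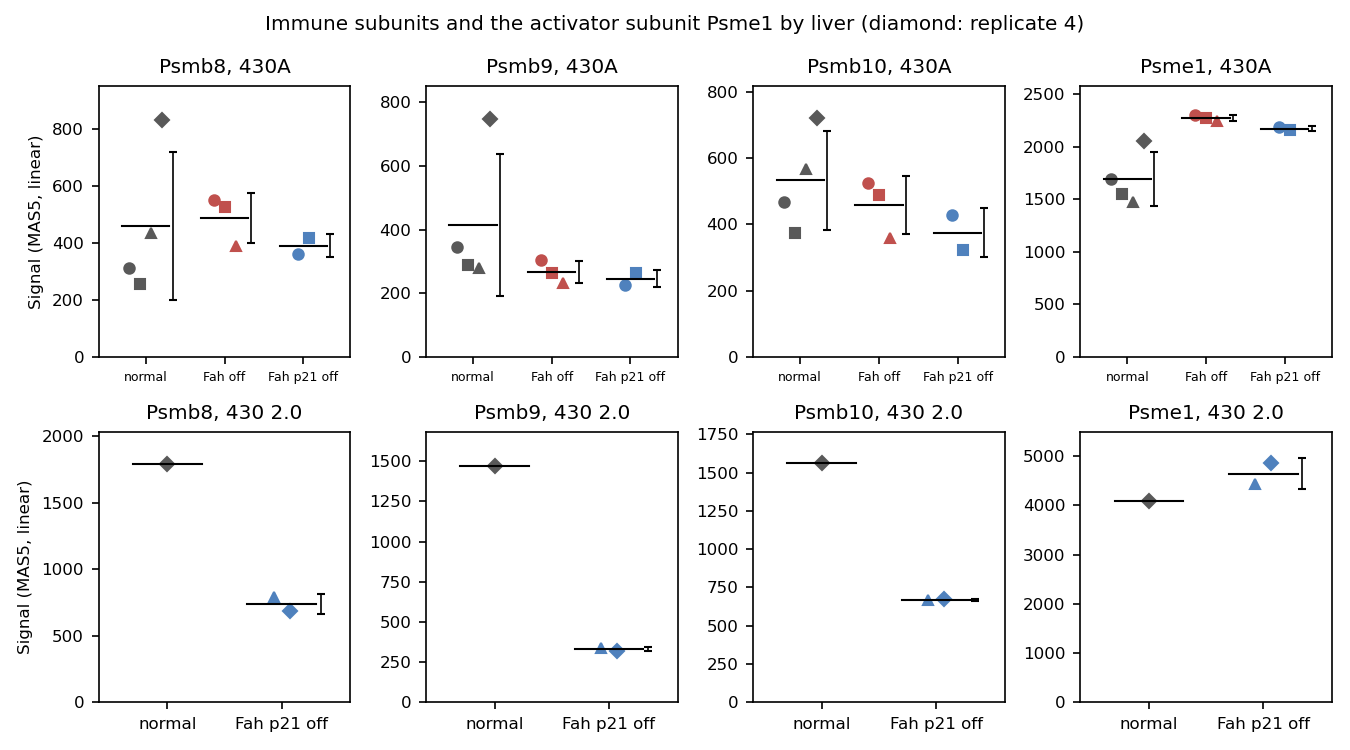
MAS5 signal (linear axis from 0) of Psmb8, Psmb9, Psmb10 and Psme1 in each liver on the 430A array (top row, normal n = 4, Fah off n = 3, Fah p21 off n = 2) and on the 430 2.0 array (bottom row, normal n = 1, Fah p21 off n = 2), with lines for means, bars for SD and a diamond for replicate 4. The diamond is the highest normal liver in every 430A panel. In the bottom row the sole normal liver and 1 of the Fah p21 off livers carry a diamond. The labels do not say whether the normal livers so marked on both arrays come from the same mouse.

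In Fah p21 off, 4 proteasome genes passed against the same normal livers. Psmd5, Psmd14 and Psmc6 rose and Psmd1 fell, each of which passed in Fah off too, and the other 37 did not pass. The 3 risen are 7.32% of the 41, against 17.8% of all genes that rose, and 11.5% of all genes fell. None of the 14 standard core genes passed by its brightest probe set, with a median change of 0.12, while the second probe set of Psma5 rose by 0.48 (adjusted p = 0.0205), and of the 17 genes of the 19S particle 2 rose and 1 fell, with a median of -0.01. All Fah p21 off livers were above all normal livers for 7 of the 41, against 28.2% of all genes. They were below all normal livers for 5, a count made over the 41 only. By probe set, 5 rose and 1 fell of 64, against 28.4% of all probe sets that passed.

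The direction of the middle of the list in Fah p21 off depended on the scaling. The median change of the 41 was 0.05 with the deposited scaling, 0.12 after quantile normalization and -0.19 after median scaling, beside medians over all genes of 0.09, -0.03 and -0.14. Median scaling left 1 proteasome gene risen, Psmd5, and 3 fallen, Psmd1, Psmb9 and Psmb10, and the split over all genes became 10.5% higher and 17.6% lower. Quantile normalization gave 8 risen and 1 fallen, with 15.2% of all genes higher and 15.0% lower. Without Fah p21 off 1, in a fit that assumes the remaining liver varies like the other groups, Psmd5 and Psmd14 still rose, Psmc6 and Psmd1 did not pass, and none fell.

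**Figure D4:**
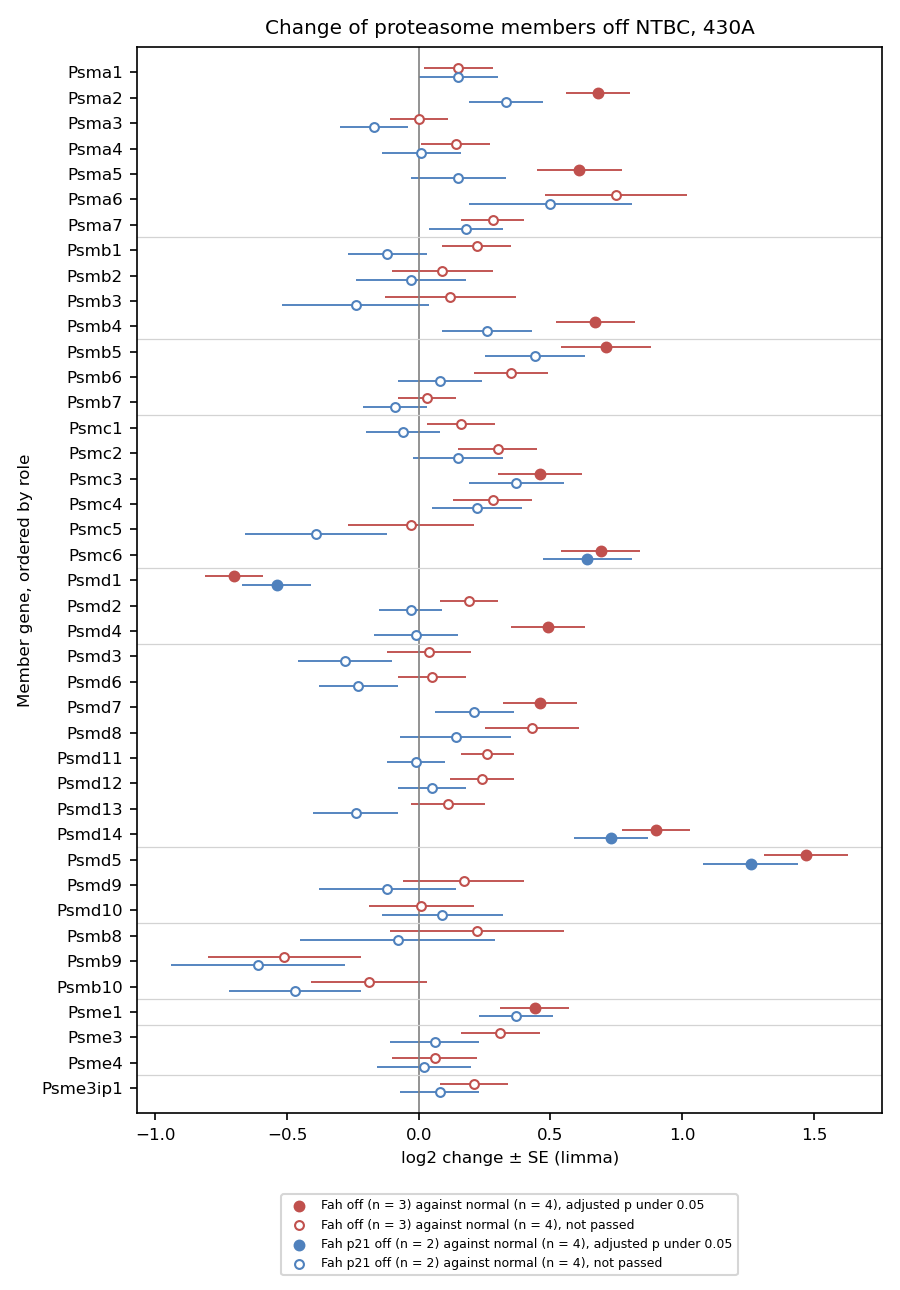
Change of each of the 41 tested proteasome genes (rows, ordered by role) on the log2 scale, with its limma standard error, in Fah off (red) and Fah p21 off (blue), each against the same 4 normal livers; filled points passed at an adjusted p under 0.05. Of the red points 12 are filled, and of the blue points 4, those of Psmd5, Psmd14, Psmc6 and Psmd1.

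Set directly against Fah off, Fah p21 off livers showed no proteasome gene that passed by limma, with 6 of the 41 at an unadjusted p under 0.05, beside 793 of 9195 genes. Over all genes 4 of 9195 passed, 0.0435%. The 41 changes ran from -0.50 for Psmd4 (95% interval -0.86 to -0.13, adjusted p = 0.44) to 0.16 for Psmd1 (-0.14 to 0.46), and 38 of them were at or below 0. Their median was -0.22, against 0.07 over all genes. Both Fah p21 off livers were below all 3 Fah off livers for 17 of the 41 genes, against 10.9% of all genes. They were above them for none, a count made over the 41 only. By role the median was -0.26 for the standard core, -0.22 for the 19S particle, -0.28 for the immune catalytic genes and -0.22 for the chaperones.

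The median of this difference was below 0 with each scaling, -0.17 after quantile normalization and -0.39 after median scaling, beside all-gene medians of 0.00 and -0.10. It was -0.15 without Fah off 3, -0.14 without Fah p21 off 2 and -0.29 without Fah p21 off 1. For the genes that rose in both groups off NTBC, the intervals left room for differences of either sign. The change was -0.22 for Psmd5 (95% interval -0.64 to 0.20), -0.17 for Psmd14 (-0.51 to 0.17) and -0.05 for Psmc6 (-0.44 to 0.34). The intervals of the 6 genes at an unadjusted p under 0.05, Psmd4 among them, lay at or below 0, and none passed after adjustment.

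On the 430 2.0 array the rule found 91 probe sets of 44 genes, 43 of them tested. This array compares 2 Fah p21 off livers with 1 normal liver and leaves 1 residual degree of freedom. The counts of genes use the brightest probe set. Dimmer probe sets of Psmd11, Psma6 and Psmd4 had changes of 1.29, 1.89 and 3.59, the last from a signal of 7.8 in the normal liver. The brightest ones of these genes had changes of 0.16, 0.24 and 0.15. Over all 81 tested member probe sets, 41 changes were above 0 and 40 at or below 0. Here 2 genes rose, Psmd5 and Psmc3ip, and 3 fell, all of them immune catalytic genes, against 9.11% of all genes that rose and 4.91% that fell. Without the names that are no subunits, 1 of 41 rose, 2.44%. Psmd5 read 1317 in the normal liver and 2810 and 2921 off NTBC, a change of 1.12 (adjusted p = 0.0219). Psmd14 read 2986 against 3802 and 4307 (0.44, adjusted p = 0.283), Psmc6 3712 against 4386 and 5015 (0.34, adjusted p = 0.415), and Psmd1 2729 against 2310 and 2218 (-0.27, adjusted p = 0.514). Psmd14, Psmc6 and Psmd1 thus did not pass here. The dimmer tested probe sets of Psmc6 went the other way, at -1.21 (adjusted p = 0.0606) and -0.72 (adjusted p = 0.155), and did not pass either. The labels do not say whether the normal liver is that of the mouse called normal 4 on the 430A array, so the arrays may share a control and are no independent check of each other.

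The immune catalytic genes fell steeply on this array. Psmb9 read 1472 in the normal liver and 339.4 and 322.5 off NTBC (-2.14, adjusted p = 0.00312). Psmb8 read 1794 against 790.6 and 688.2 (-1.28, adjusted p = 0.0194), and Psmb10 read 1561 against 666.4 and 675.6 (-1.21, adjusted p = 0.0212). The only normal liver here has the label of normal 4, the liver with the highest signals of these genes on the 430A array, so the fall cannot be told apart from that liver's own level. Psmc3ip read 33.0 against 146.1 and 173.8 (2.15, adjusted p = 0.02). Brightness on 2 arrays was enough to be tested, so the 2 Fah p21 off livers alone could bring Psmc3ip into the test, and its call is a description only. On the 430A array Psmc3ip was not tested, and read 18.6 to 57.7 in the normal and Fah off livers and 78.5 and 167.0 in Fah p21 off.

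Among 16 genes for proteasome assembly, partners and gene regulators, 6 rose and 2 fell in Fah off, with a median change of 0.18, and 4 rose and 1 fell in Fah p21 off, with a median of 0.12. Over all genes 19.7% rose and 16.5% fell in Fah off, and 17.8% and 11.5% in Fah p21 off. The largest rise was that of Nfe2l2, which read 751.1, 808.5, 1084 and 710.9 in the normal livers, 2128, 1688 and 2340 in Fah off, and 2192 and 2208 in Fah p21 off, changes of 1.29 (adjusted p = 0.000147) and 1.4 (adjusted p = 0.000321). Psmf1, a proteasome-binding regulator, rose by 0.93 and 0.54, and Nfe2l1 rose by 0.61 in Fah off (adjusted p = 0.00481) with 0.24 in Fah p21 off (adjusted p = 0.287). Psmg2, a chaperone of the alpha ring, read 570.0, 713.3, 702.4 and 629.8 in the normal livers, 335.8, 300.9 and 334.4 in Fah off, and 489.3 and 467.5 in Fah p21 off. Psmg2 thus fell by 0.99 in Fah off (adjusted p = 0.000175) and by 0.44 in Fah p21 off (adjusted p = 0.0477), and Psmg3, of the same step, fell by 0.62 in Fah off.

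Of a list of ubiquitin genes, shuttles and Vcp with its cofactors, 13 genes were measured, none of which codes for ubiquitin itself. Of these, 9 rose in Fah off and 5 in Fah p21 off, against 19.7% and 17.8% of all genes, none fell, and the median changes were 0.50 and 0.39. The 3 largest were Zfand2a, a stress-induced partner of the 19S particle, at 1.62 and 1.49, the shuttle Ubqln2 at 1.54 and 1.45, and Zfand5, an activator of the proteasome, at 1.22 and 0.76. Ubqln2 read 455.4, 483.2, 509.6 and 642.3 in the normal livers, 1428, 1669 and 1496 in Fah off, and 1374 and 1488 in Fah p21 off. None of the genes of these lists passed between Fah p21 off and Fah off.

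Among 17 tested genes of antigen processing and the interferon gamma response, 1 rose and 2 fell in each group off NTBC, with median changes of -0.02 and 0.05. The shares of all genes were 19.7% risen and 16.5% fallen in Fah off, and 17.8% and 11.5% in Fah p21 off. The summed signal of the list was 21412 to 28351 in the normal livers, highest in normal 4, 18832 to 21233 in Fah off and 16546 to 20774 in Fah p21 off. On the 430 2.0 array 1 of 18 fell and none rose, against 4.91% and 9.11% of all genes. The median change there was -0.48, and the summed signal was 56318 in the normal liver against 35284 and 38962. Ifngr1, a chain of the interferon gamma receptor, rose by 0.70 and 0.69. Cxcl9, a chemokine that interferon gamma induces, fell by 2.99 and 2.41, and B2m, the light chain of class I molecules, fell by 0.79 and 0.77. Tap1, the peptide transporter, read 271.1, 294.7, 350.1 and 573.5 in the normal livers, with normal 4 again highest, and 302.4 to 363.0 off NTBC. Ifng itself was not tested, at 7.3 to 35.6.

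The makeup of the tissue moved with the groups, and its part in the results was not tested. In bulk liver, fewer cells of a type and less RNA per cell cannot be told apart. Beside the counts below, 19.7% of all genes rose and 16.5% fell in Fah off, and 17.8% and 11.5% in Fah p21 off. Hepatocyte markers summed to 92326 to 99352 in the normal livers, 56499 to 62596 in Fah off and 56036 to 60169 in Fah p21 off, with 7 of 7 fallen in the former and 6 of 7 in the latter, and Alb was still at 11573 to 13806 off NTBC. Macrophage markers summed to 5839 to 8660, 8544 to 10300 and 11153 to 11778, with 4 and 8 of 11 risen. Lymphocyte markers, of which 5 of 15 were bright enough to test, summed to 684.9 to 1211, 714.3 to 966.9 and 1043 to 1184, with 0 and 1 risen, and normal 4 was the highest liver. Markers of dividing cells summed to 256.9 to 418.1, 915.5 to 1182 and 2585 to 6192, with 2 and 6 of 6 risen. No marker was listed at 0. On the 430 2.0 array hepatocyte markers summed to 138361 in the normal liver and 119595 and 115086 in Fah p21 off, with a median change of -0.18. Macrophage markers summed there to 17782 against 28046 and 22266, and lymphocyte markers to 2007 against 2359 and 1367. Those of dividing cells summed to 823.3 against 8541 and 8084.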

How the data were processed

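The authors deposited linear intensity signals, 1 for each probe set of an array. The submitters' processing notes name GCOS 1.4.0.036 and MAS5. Per the labels' protocols, RNA came from 10 mg of liver. The deposited trimmed means were nearly equal, so the authors had scaled the arrays, and no further scaling was applied.

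From there, log2(signal + offset) was fitted with limma 3.58.1 in R 4.3.3, with groups by title, all 9 430A arrays in 1 fit (6 residual degrees of freedom) and an intensity trend. The offset was the 10th percentile of all signals, 9.9 on 430A and 3.8 on 430 2.0. A probe set was tested if its signal reached the 40th percentile of the array on 2 or more arrays. Control probe sets (64 per design) were left out. The 430 2.0 arrays were fitted alone. Benjamini-Hochberg adjustment ran over all probe sets tested. A 95% interval is limma's. The fit was tested on simulated data with independent noise and 200 changed probe sets, where 5437 passed in Fah off in the real data. That test does not bear on the calls of single genes here. No pair of 430A arrays shared more than 0.407% of signals. In the main fit, livers of different groups were not paired by replicate number (correlations of same-numbered livers from -0.281 to 0.071).

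The members and lists were chosen with earlier results of these data known. Named genes are, in each role, the 2 largest and the 1 smallest changes, all immune, activator and chaperone genes, genes with probe sets of opposite sign, and up to 3 passed genes per direction of each list. Alternatives varied the filter, offset, scaling, trend, normal livers and single livers.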

Additional observations from a re-analysis of the deposited data

Results flagged for a closer look

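In groups of 4 livers, a sample was picked out where its gap to the nearest other, divided by the group's range, was above Dixon's critical value. This was checked for the normal livers in 41 proteasome genes, and 2 were picked out, where chance gives about 1 in 20. In Psmd1, the liver normal 3 stood below the other normal livers at a signal of 1525, with a gap of 0.892 of the range. In Psmd14, the liver normal 4 stood below the others at 993.1, with a gap of 0.906. Both genes passed in both comparisons on the 430A array without that liver too.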

How the results depend on the processing

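The count of proteasome genes that passed in Fah off against normal was 12, and 7 at an adjusted p under 0.01, 7 after median scaling, 16 after quantile normalization, 8 with the replicate block, and 9 to 13 when 1 liver was left out. The median change was 0.22, and 0.35 against the knockout normal livers alone. In Fah p21 off against normal 4 passed, 9 after quantile normalization, 7 against the knockout normal livers alone, 3 with the replicate block and 2 to 5 when 1 liver was left out, and the median moved from 0.05 to -0.19 after median scaling. In Fah p21 off against Fah off the count was 0 throughout, and the median moved from -0.22 to -0.39 after median scaling. On the 430 2.0 array 5 passed, 1 at an adjusted p under 0.01, 1 without a filter and 2 without the intensity trend; leaving out a liver there leaves no residual degree of freedom and was not run. Psmc6 in Fah off reversed to -0.12 with the mean of its probe sets. Among 21 alternatives each at the usual threshold, Psmd5, Psmd14, Psmd1, Psma2 and Psmb5 passed in Fah off in all. Psmd5 alone did so in Fah p21 off, where Psmd14 did not pass after median scaling, Psmd1 without Fah p21 off 1, and Psmc6 in 4. The causes were not tested.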
